A study of Mus musculus with 2 samples.

Results

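Short reads ending in CCA, the tail of every mature tRNA, were examined in small RNA libraries of J1 mouse embryonic stem cells. The members were the sequences of 15 to 17 nt whose last bases are CCA and that had no exact sense match in the miRNA, rRNA, snoRNA, scaRNA, snRNA or mitochondrial genes of GENCODE M21. They numbered 1167 of 130643 distinct sequences, 852 of them seen with DMSO and 591 with SB431542. J1 is a line of strain 129S4/SvJae, adapted to gelatin and grown here in Knockout Serum Replacement medium. The medium held LIF, a cytokine that keeps mouse embryonic stem cells undifferentiated, at 1000 U/mL. One culture condition was 24 h with 3 µM SB431542, an inhibitor of the activin, Nodal and TGF-beta type I receptor kinases, and the other 24 h with an equal volume of DMSO, its solvent. Each had 1 library, so no difference below has a replicate check, no test was made, and every interval is a 95% interval for counting error only. PCR reads without molecular identifiers are not independent molecules, so these intervals are the narrowest the data allow.

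A tRNA gene of the mouse does not encode the CCA tail. A nucleotidyltransferase adds it after transcription, and the amino acid is then joined to its last base. Reading from the tail inward, a mature tRNA has the discriminator base, the strand of the acceptor stem that pairs with the very start of the molecule, and the closing strand of the T stem, which opens with a nearly invariant C next to the T loop. Fragments cut in the T loop and running to the tail are called tRF-3. They have been found bound to Argonaute proteins, and in mouse stem cells they are known for interfering with retroelements that use tRNAs as primers.

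In such a fragment the T-stem C (tRNA position 61) is base 16 counted from the 3′ end, and the discriminator (position 73) is base 4. Neither was used to choose the members. A read of 17 nt that ends with the tail begins at tRNA position 60, the last base of the T loop. The leading sequences of families 1 to 15 are printed 5′ to 3′ because they carry most of the reads. The tail is in capitals, and so is base 16 where it is C. Sequences that share their last 15 bases were counted as a family, numbered by its reads over both libraries, and the sequence shown is the most abundant of the family.
family 1: aCcgggcggaaacaCCA
family 2: tCcggctcgaaggaCCA
family 3: aCcgggcagaaacaCCA
family 4: tCccgtctggaccgCCA
family 5: cCccggcatctccaCCA
family 6: cagcttccgggaaaCCA
family 7: tCccggccaacgcaCCA
family 8: cagccgcggtaattCCA
family 9: tgagaaacggctaCCA
family 10: tCccggccaatgcaCCA
family 11: cCccggcacctccaCCA
family 12: tCacgtcggggtcaCCA
family 13: agcaggacggtggCCA
family 14: tCctgccgactacgCCA
family 15: tCccgggcggcgcaCCA
Families 6, 8, 9 and 13 have another base where the others have the T-stem C.

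Before matching, the libraries held 990296 (DMSO) and 517535 (SB431542) reads of 15 to 17 nt, and 886271 and 482823 of these had no match in the classes left out. These eligible reads are the denominator of the shares below, and levels are given as reads per 1000000 of them (RPM), on which 3 reads are 3.38 and 6.21 RPM. Such a total counts only short reads and does not give the sequencing depth. Of the embryonic stem cell markers, the hairpins Mir290a, Mir291a, Mir293, Mir294 and Mir295 had 39310 and 10442 matching reads, while the sixth of the list, Mir292a, is not a symbol of the annotation and has no value. As a level these are 39695 and 20176 reads per 1000000 reads of 15 to 17 nt, lower with SB431542, and the part of this difference in the members' ratios was not tested. The fibroblast and feeder list had 64 and 11 reads, with Mir145a and Mir214 at 0 in both libraries and Mir199a-2 at 0 with SB431542. The let-7 hairpins, markers of differentiated cells, had 39 and 14.

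CCA was a common end but not a leading one. It closed 18849 of the eligible reads with DMSO, a share of 2.13% (Clopper-Pearson interval 2.10 to 2.16), and 9231 with SB431542, a share of 1.91% (1.87 to 1.95). Among the 64 possible 3-base ends it ranked 15 with DMSO and 18 with SB431542. The median of the other 63 ends was 0.933% and 0.774%, and their range was 0.129 to 7.32% and 0.110 to 10.1%. The ends GGG, GCG and TCG held the first places in both libraries. The other orders of the same bases were rare: ACC closed 0.167% and 0.140% of the reads, and CAC 0.265% and 0.221%. By distinct sequences CCA was less prominent, at 1.23% of those with DMSO, since few sequences supplied most of its reads.

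A few families held most of the CCA reads. Family 1 alone held 36.9% of the member reads with DMSO and 39.0% with SB431542, and the first 5 families held 72.6% and 70.4%. Without family 1 the CCA share was 1.35% and 1.18%, at rank 28 in both libraries. Without the first 5 it was 0.592% and 0.573%, at ranks 46 and 40. The other ends kept their leading families in these ranks, so a lower rank follows from the removal. At the other extreme, 774 of the 1167 members had a single read over both libraries. The 276 members found in both libraries held 96.0% and 96.3% of the member reads.

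The bases inside the fragments followed the plan of a tRNA 3′ end. Base 16 from the end was C in 88.0% of the 16 and 17 nt member reads with DMSO (87.5 to 88.5) and in 89.1% with SB431542 (88.4 to 89.7). In reads with the other ends it was C in 24.5% and 26.0%. By reads CCA ranked 1 among the 64 ends for this base with DMSO, and GAC, at 90.2%, stood above it with SB431542. A single sequence supplied 65.9% of those GAC reads, against 38.2% for the leading CCA sequence. Counted by distinct sequences, among which are rare single-base variants of the abundant ones, C stood at base 16 in 44.9% of the members with DMSO and 46.7% with SB431542. That was the highest share of any end in both libraries, where the other ends had medians of 21.3% and 21.8% and maxima of 32.1% and 36.8%. Without the first 5 families the read share was 50.9% and 59.5%. The data thus went with the label of tRNA 3′ ends for most reads. Of the 39 families with at least 50 reads, 14 had another base at base 16. For families 6, 8, 9, 13, 16, 17, 21, 22, 24, 29, 30, 32 and 38 among them, and for many rarer members, this base went against the label. In family 16 only 2.44% of the reads are long enough to show it. Family 34 is also 1 of the 14, but it is a tailless frame of family 5 (below), in which base 16 is not the T-stem place.

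The discriminator base was A in 81.1% of member reads with DMSO and 81.5% with SB431542. In reads with other ends A stood at that place in 15.4% and 12.9%. By distinct sequences the values were lower, 42.7% and 37.6% of members against 22.3% and 20.1% of the others. G was the next most common in members, at 12.1% and 11.3%. Of the 39 families with at least 50 reads over both libraries, 25 had the T-stem C, and of these 14 had A, 7 had G, 2 had C and 2 had T as discriminator. Among the families of other ends with at least 50 reads, 24.3% had C at base 16.

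Base 17, the last base of the T loop, is a pyrimidine in many tRNAs. It was C or T in 45.8% of the 17 nt member reads with DMSO and 42.0% with SB431542, below the 56.0% and 57.3% of the other ends. The members' value was set by family 1 and family 3, which have A there and a C after it.

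Where a tRNA gene sequence could be read, the members were compared with the last bases of the gene. Fragments from elsewhere in these genes were not searched, so the shares below do not show where fragments end within a gene. No genome was used here, so gene sequences were available only for the 13 of 408 nuclear tRNA genes in the RefSeq table that lie inside a RefSeq promoter window or a GENCODE exon, and for the 22 mitochondrial ones. With the CCA taken off, 41.1% of the 16 and 17 nt member reads with DMSO (40.4 to 41.8) and 44.1% with SB431542 (43.1 to 45.2) were exactly the last bases of one of those nuclear genes, and 11 of the 13 genes had such reads in each library. These shares are lower limits, since the other genes were not searched. Nearly all held the ending of the valine gene: without family 1 they were 4.24% and 6.02%. With 1 substitution allowed the shares were 55.1% and 60.4%.

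A 3′ fragment this short is shared by gene copies, so the reads belong to the ending and not to 1 locus. The ending of the serine gene n-TStga1 was identical to those of n-TStga2 and n-TSaga9.

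Where 3 more bases followed a gene ending, they were almost always the tail. Reads that stop at the gene ending or inside the tail are not in this count and are given below. Of the reads that held the last 13 or 14 bases of one of the 13 nuclear genes and then 3 more bases, 7398 of 7403 with DMSO (99.93%, 99.84 to 99.98) and 3905 of 3910 with SB431542 (99.9%, 99.7 to 99.96) continued with CCA. No other 3 bases were seen more than 2 times in a library. No member matched the end of a mitochondrial tRNA, exactly or with 1 substitution, so 0 of 18001 and 0 of 8853 reads came from the 22 genes, which allows up to 0.0167% and 0.0339%, taking 3 reads of the total as the limit. The upper Clopper-Pearson bounds were 0.0205% and 0.0417%. Malat1 and Neat1 are nuclear noncoding RNAs whose downstream products receive a CCA tail. Matches of members to their annotated transcripts were at 0 as well, with the same limits. Whether these transcripts reach the tRNA-like ends was not tested, so the limits hold for those ends only if they do.

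By amino acid, the valine fragment (family 1) had 6957 reads with DMSO and 3598 with SB431542, or 7850 and 7452 RPM. The alanine fragment with an exact match (family 11) had 160 and 112 reads, or 181 and 232 RPM. For serine with anticodons TGA and AGA (family 14) there were 127 and 88 reads, or 143 and 182 RPM. The glycine fragment with anticodon CCC (family 15, gene n-TGccc7) had 127 and 72 reads, or 143 and 149 RPM. The arginine fragment with anticodon TCG (family 37, gene n-TRtcg5) had 35 and 27 reads. The valine family thus stood more than an order of magnitude above each other family named here by an exact match, in both libraries. Family 5, 1 substitution from the alanine gene, had 554 and 315 reads and is not counted with alanine here. The other genes with reads had few: n-TSgct5, for serine with anticodon GCT, had 20 and 15, and n-TItat14, n-TRtct4 and n-TTagt9 had 5 or fewer in each library. The proline gene n-TPtgg2 had no exact match, while family 18, with 100 and 57 reads, was 1 substitution from it, and n-TRtct2 had 1 read, of 15 nt, with SB431542 alone.

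Several leading families differed from another by a single base. Positions are counted from 1 at the 5′ end of the 17 nt sequence. The change G8A turns family 1 into family 3, which had 1799 reads with DMSO and 1022 with SB431542, 25.9% and 28.4% of family 1. Of the 42 possible substitutions in the 14 bases before the tail of family 1, the next most abundant was A10G (family 27), at 0.808% and 1.06% of the 17 nt sequence. The third had 4 reads over both libraries and the median had 1. Family 2, the next in size, had 3 reads at its most abundant substitution, and family 4 had 1. T9C turns family 5, with 554 and 315 reads, into the alanine family 11, so that family 5 is 1 substitution from the alanine gene. The level of family 3 was therefore above that of every other single-base variant of family 1. Which genes hold these variants was not tested, beyond the match of families 1 and 11 to the valine and alanine genes.

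The sequences of a family share their last 15 bases by definition, so their lengths are counted from a fixed 3′ end. Over all members the longest length allowed by the files was the most common. Reads of 17 nt were 85.0% of the members with DMSO and 86.3% with SB431542, those of 16 nt 10.5% and 9.58%, and those of 15 nt 4.50% and 4.09%. Among reads with the other ends 17 nt held 51.5% and 49.9%. Since no read above 17 nt was in the files analysed, it is not known whether 17 nt is where these fragments end or where they were cut off by length. Without the first 5 families the 17 nt share of members was 61.6% and 67.1%.

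In family 1 the shorter nested reads were few: with DMSO there were 6438 of 17 nt, 491 of 16 nt, 22 of 15 nt and 1 in all from 10 to 14 nt. With SB431542 the corresponding reads were 3384, 204, 7 and 0. Family 2 had fewer reads of 16 nt for its size, with 3293, 40 and 25 reads with DMSO and 1106, 16 and 6 with SB431542. Family 5 was flatter, at 363, 176 and 10 reads with DMSO and 243, 58 and 8 with SB431542. Its first base is C, as is the next, so a read of 16 nt starts with C61 and one of 17 nt with a C of the T loop. Over the 25 families with the T-stem C the median share of 17 nt was 83.9%, and 21 of them had most of their reads there. Over the 14 other families it was 65.9%, and over 1857 families with other ends 42.7%.

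Not every family had this pattern: of the 14 families without the T-stem C, 7 had most of their reads at 17 nt. Over both libraries 17 nt held 7.78% of the reads of family 13, 4.35% of family 17 and 0% of family 16. Family 9 had 60 reads of 17 nt against 181 of 16 nt in the DMSO library and 7 against 44 with SB431542. Another exception, picked out after its values were seen, was family 19, whose reads were mostly shorter than the members. Its last 13 and 14 bases are shown because their reads outnumber the 15 to 17 nt ones.
family 19, 15 nt: CCACGTTGGGCGCCA
family 19, 14 nt: CACGTTGGGCGCCA
family 19, 13 nt: ACGTTGGGCGCCA
The family had 88 member reads with DMSO and 43 with SB431542. Its 14 nt form had 246 and 278 reads and its 13 nt form 170 and 351. The short forms were thus higher in the SB431542 library even as raw reads, while the 15 to 17 nt reads had a log2 ratio of -0.15 (-0.72 to 0.38) per eligible reads.

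Reads that stop inside the tail were counted for the named families, taking those of 15 to 17 nt that end with the 12 bases before the tail, or with C, CC or CCA after them. A fragment of 17 nt with its tail is shorter than 15 nt without it, so its tailless form was not counted. From the same start, a read that runs past the CCA is longer than 17 nt and was not in the files. The shares below therefore hold only within these lengths and can overstate completeness. For family 1 with DMSO, 76 reads had no tail base, 71 had C, 95 had CC and 6957 had CCA, so that 96.6% were complete (96.2 to 97.0). With SB431542 the counts were 13, 23, 27 and 3598, and 98.3% were complete (97.8 to 98.7). Family 2 was complete in 96.5% and 94.2%, and most of its incomplete reads ended in CC (93 and 58). Over the 13 named families with the T-stem C, 90.3% of such reads were complete with DMSO and 90.9% with SB431542. Family 12 decided those values: 772 and 414 reads ended at its body without a tail, against 158 and 99 with one. The 3 most abundant of its tailless reads in both libraries were ATCACGTCGGGGTCA, ATATCACGTCGGGGTCA and AGATCACGTCGGGGTCA, which share a 3′ end and differ upstream. Without family 12, left out after its values were seen, 95.1% and 96.0% were complete. In the 6 named families without the T-stem C the value was 68.6% and 69.1%, and 327 and 75 reads ran past the CCA, against 5 and 2 in the 13 families. Most of those reads, 251 and 47, belonged to family 17, where 29.2% and 20.95% ended in CCA. A family whose reads are mostly of 17 nt has little room for reads past the tail, so the length limits enter this contrast.

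The encoded end of the alanine gene is itself CCA. Reads that stop at the discriminator without a tail are then members too. Family 34 (52 and 13 reads) is such a frame of family 5, though its leading sequence also matches Atxn2l, and family 44 (21 and 14) is one of family 11.

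Some members had other matches, both with and without the T-stem C. The leading sequences of families 7, 10, 18, 20, 23 and 25, with the T-stem C, had one, and those of families 9, 13 and 22, without it, had none. Families 6, 8 and 17 matched Gm42418, which RefSeq lists as a synonym of Rn18s-rs5, a copy of 18S ribosomal RNA, and matches to it held 4.72% of the member reads with DMSO and 4.61% with SB431542. Only exact matches to this copy are in these shares, so ribosomal reads without one would remain uncounted among the members. The leading sequence of family 9 ends with the bases that open that of family 21. Neither had a match, and their source was not tested. Family 32 matched Lars2 in its leading sequence. In all, 10.3% and 12.1% of member reads had an exact match in a GENCODE transcript outside the classes left out. For reads with other ends the values were 14.7% and 15.5%. The members were therefore a mixture, and 2164 reads with DMSO and 966 with SB431542 came from 16 and 17 nt sequences with another base at position 16.

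Ratios between the libraries were taken for all CCA reads together and for the 39 families with at least 50 reads. The CCA share had a log2 ratio of SB431542 to DMSO of -0.15 (-0.19 to -0.12), at place 30 of 64 when the ends are ordered by ratio from the highest. The other ends had a median of -0.20, from -1.18 to 0.56, with 17 above and 46 below 0. The edgeR TMM factors and DESeq2 size factors were taken over the 1896 families of all ends with at least 50 reads. Scaling by them moves every ratio by 0.20 or 0.19, and the sign of the CCA ratio then turned, to 0.045 and 0.040. Members with the T-stem C stood at -0.13 (-0.17 to -0.09) and the others at -0.29 (-0.40 to -0.18).

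Of the 39 families with at least 50 reads, the level with SB431542 was higher by 2-fold or more in 1, lower by 2-fold or more in 4, and within 2-fold in 34. Over the 1896 families of all ends with as many reads, 4.01% were at least 2-fold higher and 15.2% at least 2-fold lower. The members' shares did not stand far from these. Their median log2 ratio was -0.029, with 19 above and 20 below 0, against -0.18 over all 1896. With TMM or DESeq2 factors 25 members were above 0 and 14 below. The GC content of the last 15 bases had a median of 66.7% in members and 60% in the other families. In these libraries the median log2 ratio of other families went from -0.56 at 40 to 50% GC to 0.36 at 90 to 100%, and was -0.12 at 60 to 70%. The part of GC content in the members' ratios was not tested beyond the GC-corrected values given with the other settings.

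Among the 5 most abundant families, families 2 and 4 had the lowest ratios. Family 2 had 3361 reads with DMSO and 1128 with SB431542, or 3792 and 2336 RPM, a log2 ratio of -0.70 (-0.80 to -0.60). Family 1, with the same GC content of 66.7% in its last 15 bases, stood at -0.075 (-0.13 to -0.017). Relative to family 1, which needs no scale, family 2 was 48.3% with DMSO and 31.4% with SB431542, an odds ratio of 0.649 (conditional exact interval 0.599 to 0.702). Family 4 had 1008 and 440 reads and a log2 ratio of -0.32 (-0.48 to -0.16). Family 3 stood at 0.061 (-0.052 to 0.17) and family 5 at 0.063 (-0.14 to 0.26), so no difference was detectable at this depth on that scale.

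The highest ratios among families with at least 100 reads belonged to families 25 and 10, which are 1 base apart. They are set beside family 7, itself 1 base from family 10, to show those bases.
family 7: tCccggccaacgcaCCA
family 10: tCccggccaatgcaCCA
family 25: tCccggcccatgcaCCA
C11T leads from family 7 to family 10, and A9C from family 10 to family 25. Family 7 had 342 reads with DMSO and 209 with SB431542, a log2 ratio of 0.17 (-0.089 to 0.42). Family 10 had 133 and 142 reads, or 150 and 294 RPM, with a log2 ratio of 0.97 (0.62 to 1.32). Family 25 had 38 and 64 reads, or 42.9 and 133 RPM, a log2 ratio of 1.62 (1.03 to 2.25), and was the family at least 2-fold higher. As a percentage of family 7, family 10 was 38.9% with DMSO and 67.9% with SB431542, an odds ratio of 1.75 (1.29 to 2.37), and family 25 was 11.1% and 30.6%, an odds ratio of 2.75 (1.74 to 4.39). The pairs of families 1 and 3 and of families 5 and 11, which also differ by 1 base, had odds ratios of 1.10 (1.01 to 1.20) and 1.23 (0.922 to 1.64). Families 10 and 25, also 1 base apart, had an odds ratio of 1.58 (0.967 to 2.59). Families 10 and 25 are described here for their high ratios, so their odds against family 7 are a description, and no difference between pairs was tested. The leading sequences of families 7 and 10 also have an exact match in Gm12505, and that of family 25 in AC161438.1, so they are lost when every GENCODE match is left out.

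The other families with high ratios among those with at least 100 reads were the alanine family 11 (0.36, 0.00017 to 0.72), the serine family 14 (0.35, -0.062 to 0.75) and family 12 (0.20, -0.18 to 0.57). The intervals of the last pair included 0. For arginine (family 37) the log2 ratio was 0.51 (-0.28 to 1.27) and for glycine (family 15) 0.062 (-0.38 to 0.49), so neither was distinguishable from no difference at this depth.

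The 4 families at least 2-fold lower had another base than C at base 16 from the end, though for family 34, a tailless frame, that base is not the T-stem place. In family 17, with a match in the 18S copy, 139 reads were in the DMSO library and 22 in the SB431542 library, a log2 ratio of -1.76 (-2.50 to -1.13). Family 9 had 248 and 57 (-1.24, -1.69 to -0.82), family 13 had 203 and 54 (-1.02, -1.50 to -0.59), and family 34, the tailless frame of family 5, had 52 and 13 (-1.08, -2.13 to -0.23). Family 13 was no longer 2-fold lower with edgeR factors (-0.83), DESeq2 factors (-0.83) or a pseudocount of 5 reads (-0.94), nor family 9 with a GC correction (-0.87). Family 22, next in order, stood at -0.90 (-1.63 to -0.27) and also had another base there. Over the 14 families with another base at that place the median log2 ratio was -0.52, with 3 above and 11 below 0. Over the 25 families with the T-stem C it was 0.071, with 16 above and 9 below 0, 1 at least 2-fold higher and 0 at least 2-fold lower. These 25 had a median GC content of 73.3% against 60% in the 14, and the part of that difference was not tested.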

How the data were processed

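The authors deposited, for each library, a list of distinct sequences of 3 to 17 nt with the length and the raw read count of each, not normalized. How reads were trimmed, filtered by length or aligned is not given in the sources used here. Per the labels, TRIzol total RNA went into an Illumina TruSeq RNA kit. The submitters' processing notes name the build mm9, of which no coordinate was used. Sequences were matched exactly, sense strand, to GENCODE M21 transcripts (GRCm38). The plan searched a genome for tRNA genes; none was used here, so RefSeq tRNA places (GRCm38.p6) were read from RefSeq promoter windows and GENCODE exons, their strand taken from the T loop. The members and lists were chosen with earlier results of these data known. Ratios used 0.5 read as pseudocount; intervals are Clopper-Pearson or exact conditional binomial.

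Named families were the 10 with most reads, the 5 highest and 5 lowest ratios among those with at least 100 reads, the leading one per amino acid with at least 50, and mitochondrial or tRNA-like ends with at least 20. On simulated data for the 1896 families, 200 of 200 changed 4-fold were called, and 5 of 1696 unchanged ones. The simulated reads had Poisson counting error only, without PCR copies, GC shifts or variation between libraries. They check the calculation and give no error rate for the 2-fold calls in the real libraries. Python 3.11.15, numpy 2.4.6, scipy 1.17.1, R 4.3.3, edgeR 4.0.16 and DESeq2 1.42.0 were used, the last pair for scaling factors only. The sequences and places of the matched tRNA genes are not reported here.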

Additional observations from a re-analysis of the deposited data

Results flagged for a closer look

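CCA ends were also counted in reads shorter than the members, without matching, and at 4 lengths they made up more of the SB431542 library than of the DMSO library, beyond counting error. The shares were 1.20% against 0.218% at 11 nt (58 and 17 reads), 0.460% against 0.278% at 12 nt (78 and 66 reads), 1.37% against 0.861% at 13 nt (537 and 433 reads) and 0.877% against 0.705% at 14 nt (576 and 788 reads). At 15 nt the order was the opposite, 0.362% against 0.430%. Sequences nested in family 19 led at 12, 13 and 14 nt: CGTTGGGCGCCA had 33 reads with SB431542 and 2 with DMSO, ACGTTGGGCGCCA 351 and 170, and CACGTTGGGCGCCA 278 and 246. At 11 nt TTCGGGCGCCA, an ending of family 20, had 17 and 2 reads, and CAGGGACGCCA, an ending of family 33, had 13 and 0.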

How the results depend on the processing

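Each group has 1 library, so no library could be left out, and values moved beyond counting error under most settings. No paired analysis was possible because each group has a single library. The cause of each shift was not tested, apart from those a setting makes by construction. Of the settings, T-stem C only, per CCA reads and 1 substitution were chosen after seeing the data. The CCA share (DMSO, then SB431542) was 1.91 and 1.80% with matched classes kept (log2 ratio -0.088, ranks 19 and 19), 2.23 and 1.99% with all GENCODE matches left out, 1.90 and 1.78% of all 15 to 17 nt reads (-0.094), 1.58 and 1.43% of all reads in the file, 2.48 and 2.28% at 16 and 17 nt (rank 17 with SB431542), 3.46 and 3.26% at 17 nt (-0.085, ranks 11 and 12), 1.98 and 1.80% at 14 to 17 nt (ranks 18 and 19), 1.35 and 1.18% without family 1 (-0.20, rank 28 in both), 0.592 and 0.573% without the first 5 families (-0.049, ranks 46 and 40), and 8.38 and 7.40% among T-stem C reads (ranks 2 and 5). The ratio turned positive with edgeR factors (0.045), DESeq2 factors (0.040) and distinct sequences with DMSO thinned (0.16, shares 1.29 and 1.44%, ranks 35 and 29), and was -0.039 with a GC correction. Families at least 2-fold higher and lower numbered 0 and 2 with GENCODE matches left out or a minimum of 200 reads, 2 and 3 per all 15 to 17 nt reads, 2 and 2 with edgeR, DESeq2, GC correction, DMSO thinned or per CCA reads, 1 and 2 with a pseudocount of 5, 1 and 0 with T-stem C only, and 253 and 79 of 861 with no minimum. C at base 16 held 46.5 and 46.7% of distinct sequences, 80.5 and 81.7% without family 1 and 50.9 and 59.5% without the first 5, and a pyrimidine at base 17 held 45.8 and 42.0%. The tRNA gene share was 4.24 and 6.02% without family 1, 10.7 and 13.3% without the first 5, 38.7 and 42.5% from the T-loop motif alone and 55.1 and 60.4% with 1 substitution. Reads of 17 nt were 80.5 and 81.4% without family 1 and 61.6 and 67.1% without the first 5. Of 210 alternative ratios of named families, 195 stayed within their counting interval, and none of those at least 2-fold apart changed sign. The settings no minimum, minimum of 200 reads and T-stem C only choose which families are listed and leave each ratio as it was. Their part of the 195 was therefore fixed in advance.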
